A study of Mus musculus with 12 samples.

Results

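The NF-kB transcription factors and the IkB proteins that hold them were examined as transcripts in the mouse hippocampus. The set held 10 genes of the 23382 in the count table, found by the gene symbol of each row's RefSeq transcripts: 5 Rel-family subunit genes (Nfkb1, Nfkb2, Rel, Rela and Relb) and 5 IkB-family genes (Nfkbia, Nfkbib, Nfkbie, Nfkbiz and Bcl3). The rule for these 10 uses gene names and no measured value, and 9 passed the filter on low counts. Bcl3 did not. On GRCm38.p6 the subunit genes span chr3:135584655-135691969 (Nfkb1), chr19:46300994-46312400 (Nfkb2), chr11:23736847-23770969 (Rel), chr19:5637442-5648134 (Rela) and chr7:19606217-19629438 (Relb). The IkB genes span chr12:55489409-55492647 (Nfkbia), chr7:28758251-28766644 (Nfkbib), chr17:45555700-45563169 (Nfkbie), chr16:55811375-55838954 (Nfkbiz) and chr7:19808462-19822824 (Bcl3).

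RNA was sequenced from hippocampi of mice on a C57BL/6 background in 4 groups of 3 libraries. Control mice received vehicle (control vehicle) or delta-9-tetrahydrocannabinol, THC (control THC), and mice of the aDN-DISC1 line, labelled DISC1 mutant, received vehicle (mutant vehicle) or THC (mutant THC). The series title places the THC exposure in adolescence and describes the genetic change as specific to astrocytes. The promoter that drives it, the dose, the age at dissection and the sex are not given in the sources used here. Controls were recognised by their sample titles alone, since their labels hold no genotype entry. Each sample title ends in its own number, but nothing in the labels says that these numbers name separate animals, beyond the stated group size. The p-values therefore reflect how far these libraries spread, which may be a spread of dissections or libraries rather than of animals. The mouse Disc1 count, at 1.42 to 3.04 CPM (counts scaled to a library of 1000000), overlapped between the genotypes and does not check the labels, since the sources used here do not say how the mutant protein is encoded.

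NF-kB proteins bind DNA as pairs of Rel-family subunits. In resting cells most pairs wait in the cytoplasm bound to an IkB protein, and signals from receptors for tumour necrosis factor, interleukin 1 or microbial products activate the IkB kinases, which mark IkB for destruction and free the pair to enter the nucleus. Among the genes then switched on are those of IkB proteins themselves, a negative feedback that ends the response. In brain the pathway is best known from inflammatory responses of microglia, astrocytes and endothelial cells. Its activity is set mainly by where the proteins are, which transcript counts do not show.

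That feedback acts through promoters, so the stretch just before an annotated transcript start is shown for the IkB genes Nfkbia and Nfkbie. It is also shown for the subunit genes Nfkb2 and Rel, with Rela, whose window held no match, for contrast. Sequences are from RefSeq on GRCm38.p6, the assembly called mm10 in the column names, and read 5′ to 3′ on the gene's strand. Capitals mark matches to the kB consensus, the 10-base NF-kB binding motif, or to its reverse complement. Overlapping matches are merged. For Nfkb2 the first of 3 starts with a window is shown. The starts used for Nfkb2 and Rela lie inside the gene spans given above, which begin at 46300994 and 5637442. The printed stretch of Nfkb2 therefore lies wholly, and that of Rela largely, within the gene span.
Nfkbia, chr12:55492648-55492772, minus strand: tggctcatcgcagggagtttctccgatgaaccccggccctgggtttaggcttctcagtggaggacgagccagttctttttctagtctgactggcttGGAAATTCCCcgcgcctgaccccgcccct
Nfkbie, chr17:45555575-45555699, plus strand: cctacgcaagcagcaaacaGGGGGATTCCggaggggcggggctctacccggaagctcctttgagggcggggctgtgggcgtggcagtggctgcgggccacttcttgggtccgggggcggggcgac
Nfkb2, chr19:46304612-46304736, plus strand: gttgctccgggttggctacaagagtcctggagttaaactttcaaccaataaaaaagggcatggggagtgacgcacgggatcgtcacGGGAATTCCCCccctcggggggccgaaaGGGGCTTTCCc
Rel, chr11:23770970-23771094, minus strand: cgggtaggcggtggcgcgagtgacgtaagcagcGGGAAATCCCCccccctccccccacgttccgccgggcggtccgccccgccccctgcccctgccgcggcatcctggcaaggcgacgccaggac
Rela, chr19:5637416-5637540, plus strand: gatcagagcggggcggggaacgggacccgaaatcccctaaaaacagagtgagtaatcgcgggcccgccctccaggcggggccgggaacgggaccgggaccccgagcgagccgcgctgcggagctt
A window of 250 bases before and 50 bases after the start was found for 7 of the 10 genes, and 5 of these held at least 1 match: Nfkb2, Rel, Nfkbia, Nfkbie and Bcl3. Rela and Nfkbib held none. Of all 32851 RefSeq promoter windows of this length 8.46% held a match, and of 27025 genes with a window 9.55% did. The match of Nfkbia began 29 bases before its start. Those of Rel and Nfkbie began 92 and 106 bases before the start, and the one of Bcl3, GGGAAGTCCC (chr7:19822744-19822753), began at base 3 after it. A match describes letters only and does not show binding in these samples.

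Nfkbia, which encodes IkB alpha, the inhibitor resynthesised fastest after NF-kB activation, was the most abundant transcript of the set. It reached 22.7 ± 3.15 CPM per kilobase of transcript (SD, n = 12 libraries), and it ranked first in 12 of 12 libraries. This scale sets genes side by side by dividing by a single transcript length per gene. An error in that length would shift a gene alike in every library. Agreement between libraries therefore does not check the order of genes with close levels. Nfkb1, which encodes the p105 precursor of the p50 subunit, followed at 6.07 ± 0.313, and Nfkbib, which encodes IkB beta, at 5.43 ± 0.36 CPM per kilobase. The ranges of these last genes overlapped, and Nfkb1 was above Nfkbib in 10 of 12 libraries. Rela, which encodes p65, the subunit that carries the activation domain of the classical p50-p65 pair, was at 4.87 ± 0.188 CPM per kilobase, below Nfkbib in 12 of 12 libraries although their ranges overlapped.

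Relb, the subunit of the alternative pathway, was at 2.73 ± 0.291 CPM per kilobase. Nfkbiz, which encodes the nuclear inhibitor-like protein IkB zeta that helps switch on secondary response genes, was at 1.88 ± 0.27. The ranges of these genes met at 2.34, with Relb above in 12 of 12 libraries. Nfkbie, which encodes IkB epsilon, was at 0.98 ± 0.137 and Nfkb2, which encodes the p100 precursor of p52 and the partner of Relb, at 0.736 ± 0.0927 CPM per kilobase. Their ranges overlapped too. Rel, which encodes c-Rel, known best from lymphocytes, was at 0.307 ± 0.0534, and Bcl3, which encodes a nuclear IkB protein that works with p50 and p52 pairs, came last at 0.0563 ± 0.0294 CPM per kilobase. Bcl3 had 2 to 8 counts per library, too few for any comparison between groups. Summed counts of Bcl3 were 11 in controls on vehicle and 16 on THC, and 13 in mutants on vehicle and 7 on THC.

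**Figure D1:**
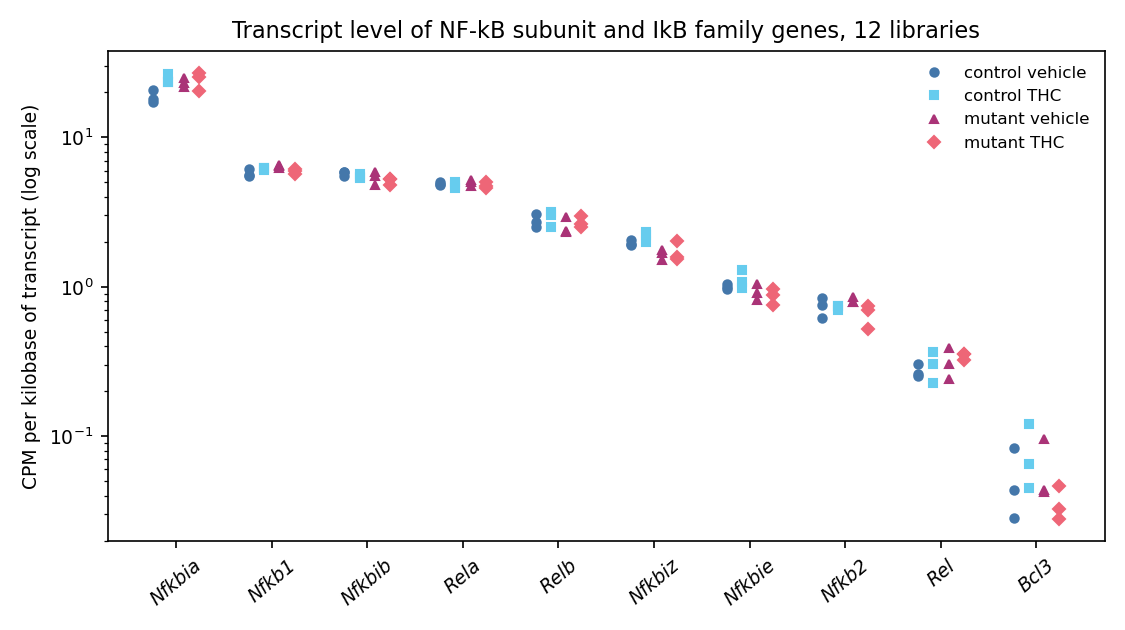
CPM per kilobase of transcript (log axis) of the 10 genes, ordered by mean, with 1 point per library and the 4 groups side by side. Nfkbia stands above the other genes at 17.2 to 27.0 and Bcl3 below them at 0.0279 to 0.121 CPM per kilobase.

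The libraries held 33165903 to 41389957 expected counts, and each of the 9 tested genes had between 58 and 1558 counts in every library. Some libraries carried transcripts of neighbouring tissue. The summed level of 16 choroid plexus markers was 342 to 424 CPM in control vehicle, control THC 1 and 3 and mutant THC 2 lay at 349 to 372 CPM, and it was 9060 CPM in control THC 2, 6230 to 17100 CPM in mutant vehicle, and 10700 and 5070 CPM in mutant THC 1 and 3. The summed level of 14 striatal neuron markers was 4830 CPM in mutant THC 3 and 615 CPM in mutant vehicle 3, and 183 to 215 CPM in the other 10 libraries. No choroid plexus marker was at 0 in any library. In bulk tissue, fewer cells of a type and less RNA per cell cannot be told apart. Vehicle libraries carry the numbers 6 to 11 in the labels and THC libraries 1 to 5 and 12, so this order and the treatment cannot be told apart either.

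No gene of the set passed an adjusted p of 0.05 in any of 6 comparisons (edgeR quasi-likelihood test, Benjamini-Hochberg over 15802 genes), and DESeq2 and limma-voom called none of them either. Over all genes the share called after adjustment was 0.0% or 0.00633%. An unadjusted p under 0.05 was met by 1, 0, 2, 2, 1 and 1 of the 9 genes, in the order in which the comparisons are listed next, beside 7.0%, 5.73%, 17.8%, 8.98%, 6.59% and 14.1% of all genes. The comparisons were THC against vehicle in each genotype, mutant against control under each treatment, their interaction, and mutant THC against control vehicle. Intervals given below are 95% intervals of the log2 fold change for a single gene, not adjusted for the number of genes.

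Rela was the steadiest of the 9. It was at 13.0, 13.3 and 13.7 CPM in control vehicle 1 to 3 and at 12.4, 13.6 and 13.0 CPM in control THC 1 to 3. Mutant vehicle libraries held 13.7, 14.0 and 12.8 CPM, and mutant THC libraries 12.9, 12.5 and 13.6 CPM. All 4 groups overlapped, and the coefficient of variation over the 12 libraries was 3.86%. The log2 fold changes ran from -0.05 to 0.02 over the 6 comparisons, and the widest 95% bounds of any of them were -0.23 and 0.2, a change of -14.7% to 14.9%. The smallest adjusted p was 0.84.

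Nfkb1 was at 25.3, 23.2 and 22.8 CPM in control vehicle 1 to 3, and at 26.4, 25.5 and 26.9 CPM in mutant vehicle. Each mutant vehicle library lay above each control vehicle library. Means were 23.8 ± 1.35 and 26.3 ± 0.723 CPM (SD, n = 3), a log2 fold change of 0.14 ± 0.058 (SE, 95% interval 0.02 to 0.27, adjusted p = 0.24 by edgeR). Under THC it was at 25.0, 25.7 and 25.8 CPM in controls and 24.5, 23.3 and 25.4 CPM in mutants, and these groups overlapped. In mutants every THC library lay below every vehicle library, but only just, at up to 25.4 CPM against 25.5 CPM or more. That margin was smaller than the SD of either group. The log2 fold change was -0.11 ± 0.059 (95% interval -0.23 to 0.02, adjusted p = 0.81 by edgeR). The THC effect was 0.1 ± 0.059 in controls (95% interval -0.03 to 0.23). The estimates thus pointed in opposite directions, though both intervals included 0. The interaction was -0.21 ± 0.083 (95% interval -0.39 to -0.02, unadjusted p = 0.03, adjusted p = 0.73 by edgeR).

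Nfkb2 reached 2.49, 2.7 and 2.49 CPM in the mutant vehicle libraries, against 2.34, 1.65 and 2.19 CPM with THC. The groups did not overlap, and mutant THC 2 was the lowest of the 12 libraries. The log2 fold change was -0.31 ± 0.17 (95% interval -0.68 to 0.05, adjusted p = 0.81 by edgeR), and it was -0.18 without mutant THC 2. In controls Nfkb2 was at 2.33 ± 0.349 CPM in vehicle and 2.29 ± 0.093 CPM in THC (SD, n = 3), with a log2 fold change of -0.02 ± 0.16 whose sign turned when single libraries were left out. The remaining subunits varied within wider bounds. Rel ranged from 1.7 to 2.92 CPM over the 12 libraries, and its largest difference was mutant THC at 2.58 ± 0.134 CPM against control vehicle at 2.03 ± 0.207, a log2 fold change of 0.35 ± 0.21 (adjusted p = 0.45) with groups that did not overlap. Relb ranged from 5.17 to 7.02 CPM, with log2 fold changes of -0.12 to 0.09 and overlapping groups in each comparison.

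**Figure D2:**
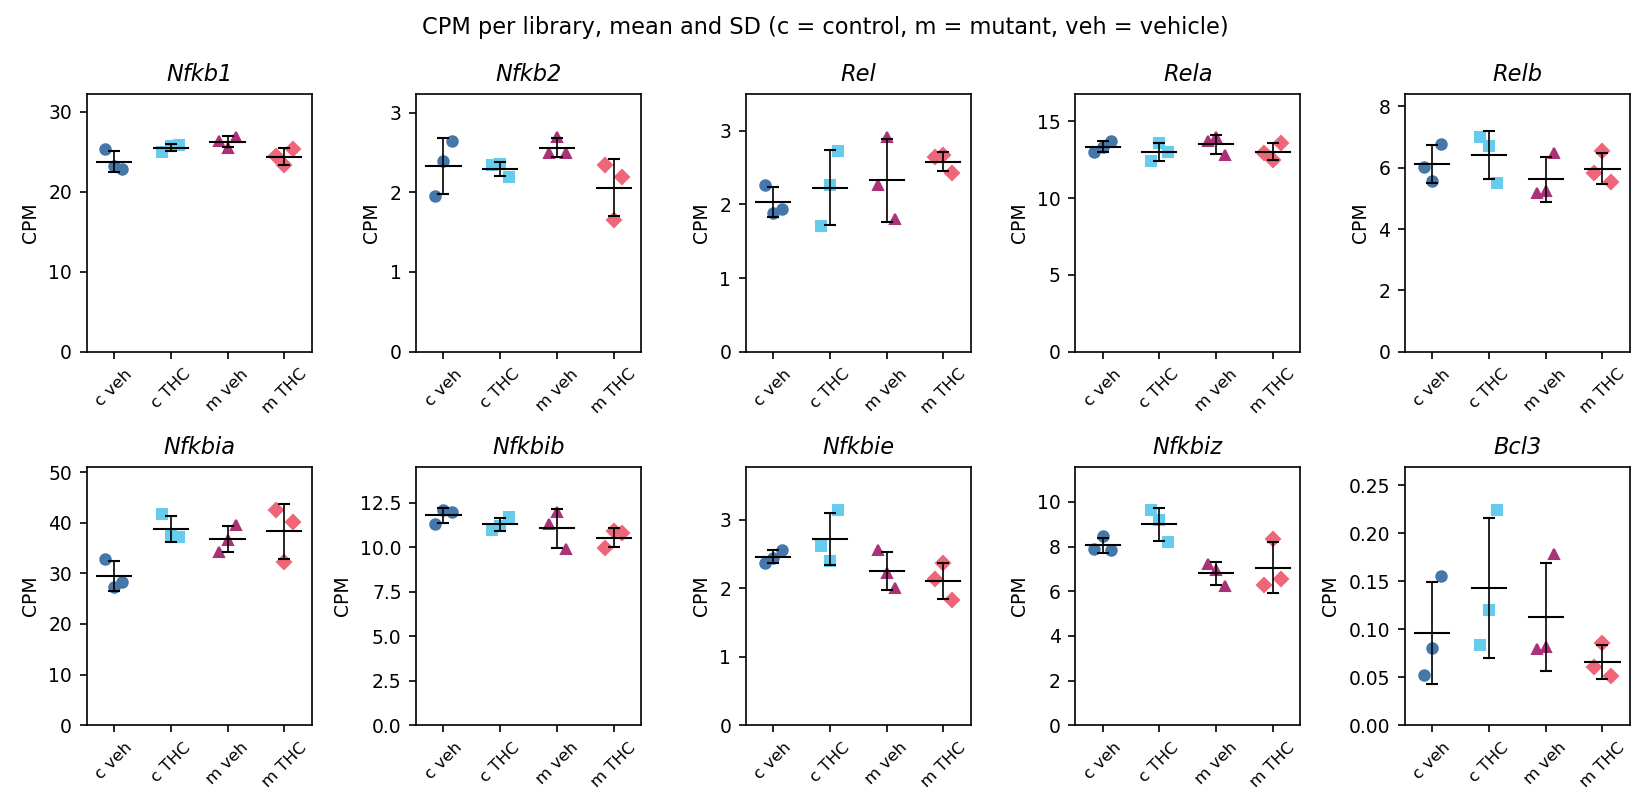
CPM of the 10 genes in each library (points) with group mean and SD (lines) on axes that start at 0. Nfkbia in control vehicle lies at 27.2 to 32.8 CPM beside 32.2 to 42.5 CPM in the other 3 groups, while Rela lies at 12.4 to 14.0 CPM throughout.

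Nfkbia had its lowest mean in control vehicle, at 29.4 ± 2.96 CPM (SD, n = 3), beside 38.7 ± 2.58 in control THC. It was at 32.8, 27.2 and 28.3 CPM in control vehicle 1 to 3, and at 41.7, 37.3 and 37.2 CPM in control THC 1 to 3. Mutant libraries held 34.3, 36.5 and 39.5 CPM with vehicle, against 42.5, 32.2 and 40.2 CPM with THC. Every control THC and every mutant vehicle library lay above every control vehicle library, and in mutant THC only library 2 lay within the control vehicle range.

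The THC effect on Nfkbia in controls was a log2 fold change of 0.4 ± 0.11 (SE, 95% interval 0.16 to 0.63), a fold of 1.32, with an unadjusted p of 0.0039 and an adjusted p of 0.7 by edgeR. In mutants the THC effect was 0.06 ± 0.11 (95% interval -0.18 to 0.3, adjusted p = 0.93), and the interaction was -0.34 ± 0.15 (95% interval -0.67 to 0.0016, adjusted p = 0.76). Mutants differed from controls by 0.32 ± 0.11 under vehicle (95% interval 0.08 to 0.56, adjusted p = 0.18) and by -0.01 ± 0.11 under THC (adjusted p = 0.97). Mutant THC differed from control vehicle by 0.38 ± 0.11 (95% interval 0.14 to 0.62, adjusted p = 0.31 by edgeR and 0.067 by DESeq2). The comparisons of control THC, mutant vehicle and mutant THC share the same 3 control vehicle libraries, so these values are not independent of each other.

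Choroid plexus markers differed beside Nfkbia, though none passed the threshold: in the THC effect in controls 16 of 16 lay above 0 (median log2 fold change 3.2), and in mutants under vehicle 16 of 16 as well (median 5.12). Other markers also stood apart in these comparisons. For mutants under vehicle, oligodendrocyte markers summed to 7050 to 7990 CPM against 5100 to 6450 in controls (12 of 12 above 0, median 0.33). Blood and leukocyte markers summed to 477 to 842 CPM against 328 to 463 (9 of 9 tested above 0, median 0.79), and general neuron markers to 6950 to 7490 CPM against 7840 to 8380 (11 of 12 below 0). Mural and meningeal markers summed to 430 to 512 CPM against 291 to 318 (10 of 14 above 0, median 0.43). None of these ranges overlapped. For THC in controls, hippocampal neuron markers summed to 1920 to 2220 CPM against 1680 to 1820 with vehicle (10 of 12 above 0, median 0.24), and astrocyte markers to 7930 to 7980 CPM against 8370 to 8880 (9 of 12 below 0, median -0.1), again without overlap. Mural and meningeal markers, at 365 to 394 CPM against 291 to 318 (12 of 14 above 0, median 0.21), did not overlap there. Endothelial markers, at 259 to 268 CPM against 225 to 245 (9 of 12 above 0, median 0.14), did not either. Oligodendrocyte markers, with 12 of 12 below 0 (median -0.23), overlapped there at 3970 to 5900 CPM with THC. The part of these cells in the Nfkbia values was not tested.

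Within the control groups, the THC effect on Nfkbia was 0.42 without control THC 2, the only control library with a high summed level of these markers. Single markers could still differ. Slc13a4 was at 23.5 CPM or more in every control THC library and at most 13.6 CPM in control vehicle. Kcnj13 was at 2.07 or more against at most 1.47 CPM, while Calml4 overlapped between these groups. Leaving out control THC 2 therefore does not separate the markers from the treatment, and their part was not tested. All 3 mutant vehicle libraries had high choroid plexus markers and no control vehicle library did, so in that comparison genotype and these markers cannot be told apart. Mutant THC 2, with choroid plexus markers at 349 CPM, was the mutant library with the lowest Nfkbia. Without it, Nfkbia in mutant THC differed from control vehicle by 0.49 (adjusted p = 0.11).

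The genes with patterns most like Nfkbia over the 12 libraries, out of 14056 compared, were Sgk1 (Pearson r = 0.94 of log2 CPM), a glucocorticoid-regulated kinase gene, Plekhf1 (r = 0.89) and Ddit4 (r = 0.89), a stress-induced inhibitor of mTOR signalling. These values describe 12 libraries that share the group structure and the tissue differences given above. Sgk1 was at 98.7, 90.0 and 81.9 CPM in control vehicle, and at 191, 177 and 146 CPM in control THC. Mutants held 148, 173 and 215 CPM of it with vehicle, and 214, 109 and 223 CPM with THC. Sgk1 was picked for its likeness to Nfkbia in these libraries, so the libraries in which both are low are no separate observation. Nfkbia is itself a known glucocorticoid-induced gene. A list of 20 such genes includes Nfkbia, and also Sgk1 and Ddit4, which were picked for likeness to it, so its counts partly restate that likeness. Of these 20 genes, 18 lay above 0 in control THC against control vehicle (median log2 fold change 0.25), and 15 for genotype under vehicle (median 0.16). For THC in mutants 12 lay above 0 (median 0.03), for genotype under THC 6 (median -0.03), for the interaction 3 (median -0.22) and for mutant THC against control vehicle 17 (median 0.22). Of all genes, 48.5% to 52.5% lay below 0 over the comparisons. In each of the 6 comparisons 0 of the 20 passed the threshold by edgeR. Fkbp5, also one of these 20 genes, was not picked for likeness, but the list was chosen with earlier results of these data known. Fkbp5 was at 50.3, 48.7 and 55 CPM in control vehicle and 72.9, 61.7 and 75.1 CPM in control THC, without overlap. Mutants held 63.8, 48.9 and 52.0 CPM of Fkbp5 with vehicle, and 51.8, 64.3 and 55 CPM with THC. Unlike Nfkbia, Fkbp5 was highest in its group in mutant THC 2, and mutant vehicle 2 and 3 lay within the control vehicle range. Whether glucocorticoid-induced genes have a part in the Nfkbia values was not tested.

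**Figure D3:**
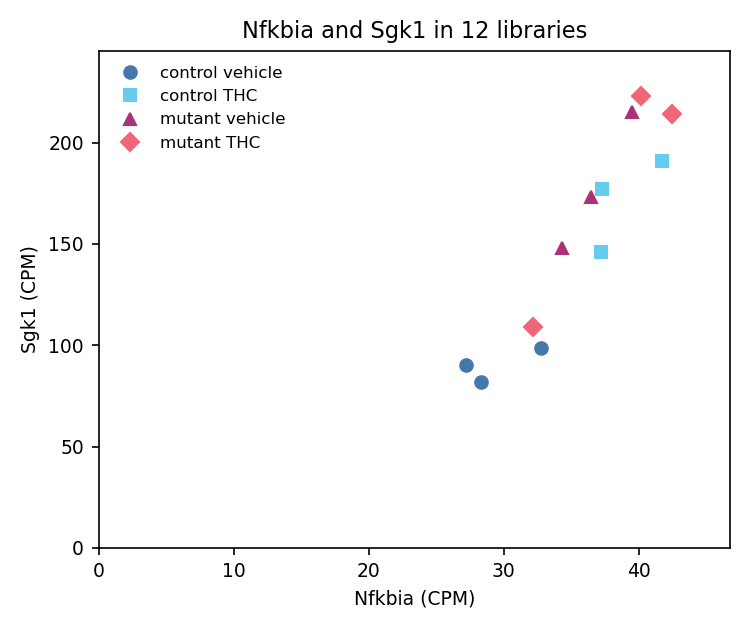
Sgk1 against Nfkbia, both in CPM on axes that start at 0, with 1 point per library and a symbol per group. The 3 control vehicle libraries lie lowest in Sgk1, at 81.9 to 98.7 CPM, next to mutant THC 2 at 109 CPM.

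Nfkbiz showed another order, with lower values in mutants. It was at 7.9, 8.46 and 7.83 CPM in control vehicle and at 7.22, 6.94 and 6.24 CPM in mutant vehicle, and these groups did not overlap. It was at 9.64, 9.18 and 8.19 CPM in control THC and at 6.28, 8.36 and 6.53 CPM in mutant THC, where mutant THC 2 alone reached the control range. The genotype effect was a log2 fold change of -0.25 ± 0.12 under vehicle (95% interval -0.51 to 0.02, adjusted p = 0.31 by edgeR) and -0.35 ± 0.12 under THC (95% interval -0.61 to -0.09, unadjusted p = 0.013, adjusted p = 0.55). Without mutant THC 2 the effect under THC was -0.49 (adjusted p = 0.09), and without mutant THC 3, the library with striatal markers, -0.3. The THC effects were 0.16 ± 0.12 in controls and 0.05 ± 0.12 in mutants.

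Nfkbie was at 2.62, 2.4 and 3.14 CPM in control THC 1 to 3 and at 2.13, 2.36 and 1.83 CPM in mutant THC. The groups were next to each other without overlap, and the log2 fold change was -0.37 ± 0.16 (95% interval -0.71 to -0.02, unadjusted p = 0.04, adjusted p = 0.55 by edgeR). It was -0.28 without mutant THC 3, which held the lowest Nfkbie value and the striatal markers. Under vehicle Nfkbie was at 2.46 ± 0.0953 CPM in controls and 2.26 ± 0.273 CPM in mutants (SD, n = 3), which overlapped. The genotype effect there was -0.12 ± 0.16 (adjusted p = 0.7).

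Marker lists also differed between the genotypes under THC, though of those given here only the microglial sums did so without overlap. Microglial markers summed to 593 to 640 CPM in mutant THC and 531 to 581 CPM in control THC, without overlap, and 14 of 14 lay above 0 (median 0.16). Hippocampal neuron markers lay below 0 in 11 of 12 (median -0.42), at 1070 to 1980 CPM in mutants and 1920 to 2220 in controls. Oligodendrocyte markers lay above 0 in 12 of 12 (median 0.51), at 5210 to 8360 CPM in mutants and 3970 to 5900 in controls. Striatal markers lay above 0 in 14 of 14 (median 3.24), but their sum was high in mutant THC 3 alone, at 4830 CPM. Their part in the Nfkbiz and Nfkbie values was not tested.

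Nfkbib varied little, from 9.89 to 12.1 CPM. It was at 11.3, 12.1 and 12 CPM in control vehicle, against 9.94, 10.9 and 10.8 CPM in mutant THC, which did not overlap, with a log2 fold change of -0.16 ± 0.084 (95% interval -0.35 to 0.02, adjusted p = 0.39 by edgeR). Mutant THC also lay below control THC, at 11 to 11.7 CPM, by a margin smaller than the spread within either group. Its THC effects were -0.07 ± 0.084 in each genotype.

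**Figure D4:**
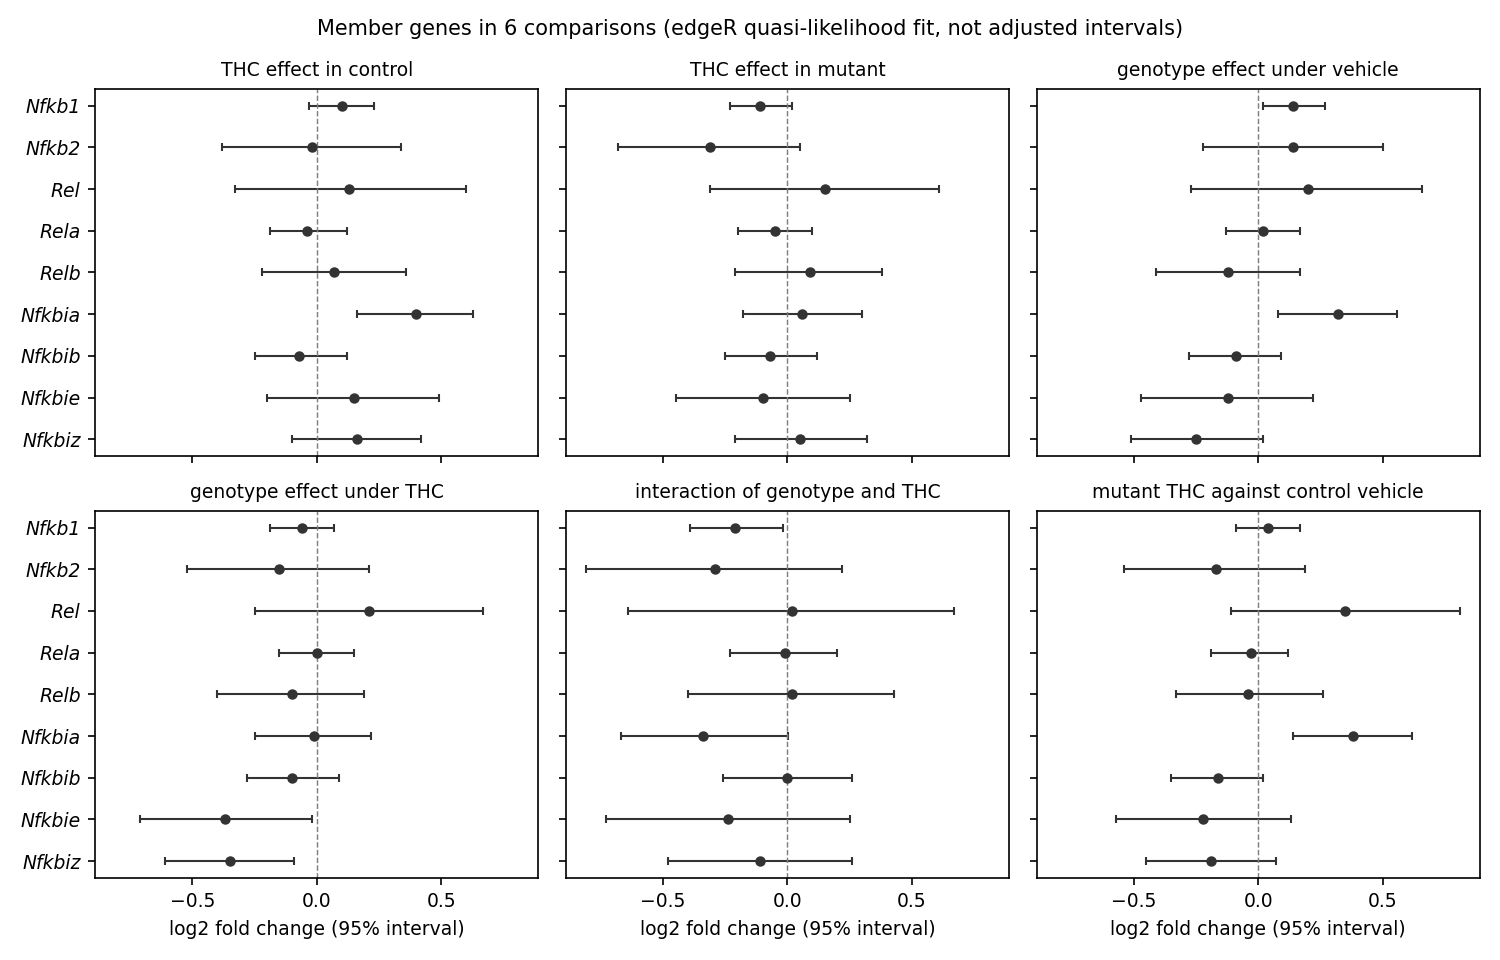
Log2 fold changes of the 9 tested genes with 95% intervals in the 6 comparisons, 1 panel each. The interval of Nfkbia lies above 0 for THC in controls (0.16 to 0.63) and for mutants under vehicle (0.08 to 0.56), and no difference passed after adjustment over all genes.

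The same description by likeness over the 12 libraries gave other genes for the other members. Nfkbie was most like Nt5c1a (Pearson r = 0.98 of log2 CPM), Nfkbiz most like 1810055G02Rik (r = 0.95), Nfkb1 most like Mdk (r = 0.95) and Nfkbib most like Tbrg4 (r = 0.94). For Rel and Nfkb2 the highest values were 0.9 (Cdkal1) and 0.89 (Lamc1), for Relb 0.88 (Gm527) and for Rela 0.81 (Jup). Each is the highest of 14056 values over 12 libraries, and no pair of genes in the set appeared among these.

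Counts over the 9 genes are given beside the share of all tested genes that met the same rule, and the difference between them was not tested. For THC in controls, 1 of the 9 genes had groups that did not overlap, beside 16.4% of all genes, and 1 had an unadjusted p under 0.05, beside 7.0%; the share called after adjustment was 0.0%. For THC in mutants 2 did not overlap, both lower with THC (Nfkb1 and Nfkb2), beside 8.47% of all genes, 0 had an unadjusted p under 0.05, beside 5.73%, and the share called was 0.0%. For mutants under vehicle 3 did not overlap, with Nfkb1 and Nfkbia higher and Nfkbiz lower, beside 28.0% of all genes, 2 had an unadjusted p under 0.05, beside 17.8%, and the share called was 0.00633%. Under THC 2 did not overlap, Nfkbib and Nfkbie, both lower in mutants, beside 10.5%, 2 had an unadjusted p under 0.05, beside 8.98%, and the share called was again 0.00633%. For the interaction 1 had an unadjusted p under 0.05, beside 6.59%, with 0.0% called. For mutant THC against control vehicle 3 did not overlap, with Rel higher and Nfkbib and Nfkbie lower, beside 17.5%, 1 had an unadjusted p under 0.05, beside 14.1%, with 0.00633% called.

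The median log2 fold change of the 9 genes was 0.1 for THC in controls, -0.05 for THC in mutants, 0.02 for genotype under vehicle and -0.1 for genotype under THC. It was -0.11 for the interaction and -0.04 for mutant THC against control vehicle. The medians of all genes lay between -0.008 and 0.006. The median size of a change, without its sign, was 0.1 and 0.09 in the set for THC in controls and in mutants, beside 0.09 over all genes in both. For genotype it was 0.14 beside 0.13 under vehicle and 0.1 beside 0.11 under THC. The interaction had 0.11 beside 0.12, and mutant THC against control vehicle 0.17 beside 0.13.

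Other parts of the pathway were described by 4 lists: IkB kinases and signalling proteins (26 of 27 genes tested), receptors and ligands (14 of 16), negative regulators and cofactors (20 of 21) and target genes (21 of 25). In none of the 6 comparisons did any of these genes pass the adjusted threshold by edgeR. For genotype under vehicle edgeR called 1 of all 15802 genes and DESeq2 called 788. The calls of DESeq2 and limma-voom for the genes of these lists are not given here. Median log2 fold changes over the comparisons were -0.18 to 0.1 for receptors and ligands and -0.1 to 0.05 for kinases and signalling proteins. Each gene named below from the lists, apart from Ptgs2, was picked as the smallest p-value of its list in the comparison given with its fold change. Among receptors, Tlr2, which senses bacterial lipoproteins, was at 1.41 ± 0.328 CPM in control vehicle and 2.98 ± 0.13 in mutant vehicle (SD, n = 3), a log2 fold change of 1.08 ± 0.21 (SE, adjusted p = 0.16). It was at 1.69 ± 0.344 in control THC and 1.91 ± 0.368 in mutant THC. Tnfrsf1a, the main receptor of tumour necrosis factor, was at 5.44 ± 0.677 CPM in controls on vehicle and 6.92 ± 0.52 on THC, and at 7.7 ± 0.241 and 6.22 ± 0.71 CPM in mutants, with an interaction of -0.65 ± 0.17 (adjusted p = 0.59). Il1a, an interleukin 1 gene, was at 0.86 ± 0.0766 CPM in control vehicle and 0.472 ± 0.0548 in control THC (-0.87 ± 0.21, adjusted p = 0.7).

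Among the kinases, Ikbke, an inducible IkB kinase relative, was at 1.22 ± 0.16 CPM in mutants on vehicle and 0.74 ± 0.0624 on THC (log2 fold change -0.72 ± 0.21, adjusted p = 0.81 by edgeR). Tab2, an adaptor of the kinase TAK1, was at 50.8 ± 2.85 CPM in control vehicle and 60.6 ± 1.55 in control THC (0.25 ± 0.067, adjusted p = 0.7). Of the 21 target genes, 14 lay below 0 for THC in mutants (median -0.22), where 52.5% of all genes did. This lean was not particular to the target genes. In the same comparison 19 of 26 kinase and signalling genes lay below 0 (median -0.04), and so did 10 of 14 receptors and ligands (median -0.18). Of the negative regulators, 10 of 20 did. For THC in controls 10 of 21 lay below 0 (median 0.01, 49.9% of all genes), for genotype under vehicle 10 (median 0.06, 51.1%) and for genotype under THC 11 (median -0.05, 48.5%). For the interaction and for mutant THC against control vehicle 14 did (medians -0.22 and -0.13, 48.7% of all genes in both). Icam1, a leukocyte adhesion molecule, had the smallest p-value for THC in mutants, at 3.6 ± 0.333 CPM on vehicle and 2.54 ± 0.0169 on THC (-0.5 ± 0.14, adjusted p = 0.81). For mutants under vehicle Vcam1, another adhesion molecule, was at 37.3 ± 3.62 and 62.1 ± 10.4 CPM (0.73 ± 0.21, adjusted p = 0.16). Ptgs2, the COX-2 gene, was at 17.0 to 42.0 CPM over the 12 libraries and overlapped between all groups. Negative regulators had medians between -0.01 and 0.06 over the comparisons.

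**Figure D5:**
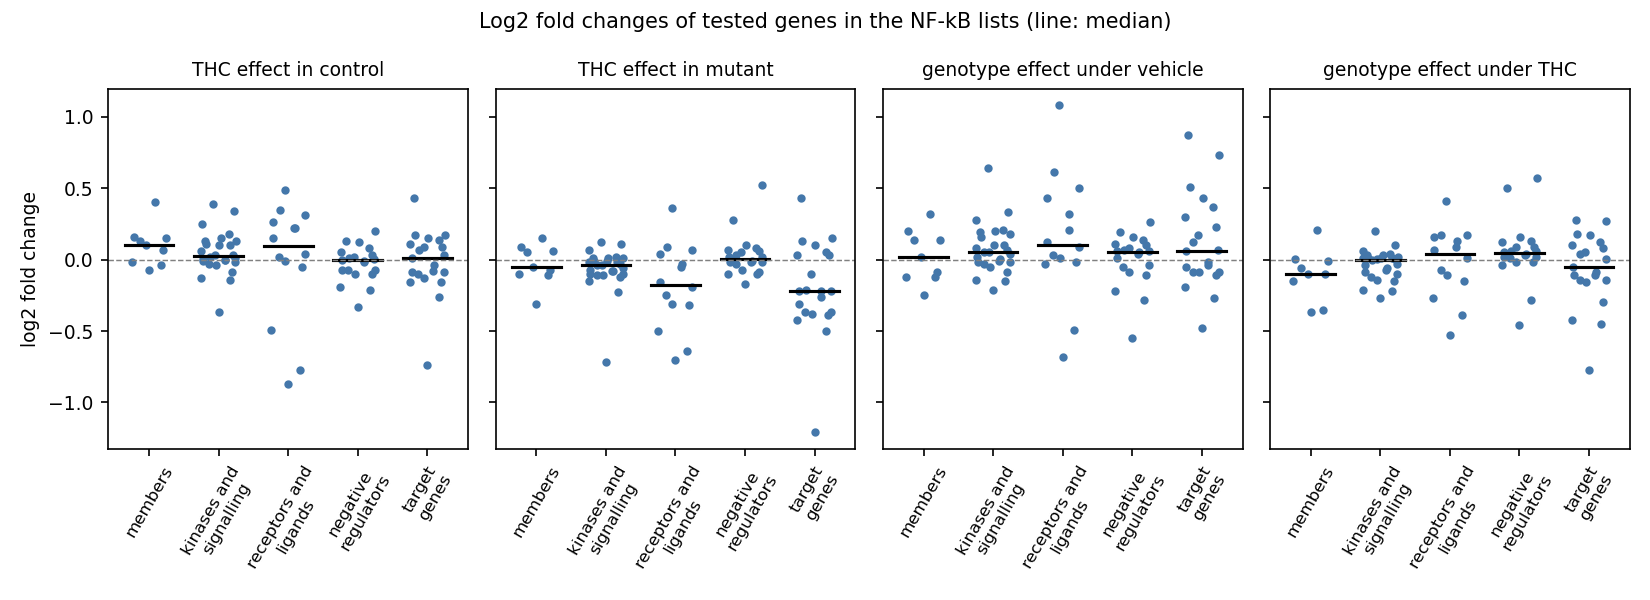
Log2 fold changes (vertical axis) of the tested genes in the set and in the 4 pathway lists, 1 point per gene, with the median as a line, for the 4 comparisons of single groups. For THC in mutants the target gene median is -0.22 and that of receptors and ligands is -0.18. The medians of the set lie between -0.1 and 0.1.

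Mural and meningeal markers differed beside these receptors and target genes, as did the choroid plexus markers given above. The 14 mural and meningeal genes summed to 291 to 318 CPM in controls on vehicle and 365 to 394 on THC, and to 430 to 512 CPM in mutants on vehicle and 278 to 446 on THC. Microglial markers, at 526 to 637 CPM in control vehicle and 596 to 627 CPM in mutant vehicle, overlapped between those groups, with 12 of 14 above 0 (median 0.09). Endothelial markers were at 225 to 245 CPM in control vehicle and 259 to 268 CPM in control THC. The part of these cells in the values of NF-kB genes was not tested. No astrocyte or hippocampal neuron marker was at 0 in any library.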

How the data were processed

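RNA of 12 hippocampal samples was depleted of ribosomal RNA and sequenced in pairs of 100 bases, per the labels' protocols. The authors deposited expected counts per gene, per the file headers from RSEM on RefSeq transcripts of mm10. RSEM 1.2.21, Bowtie2 2.2.2, edgeR 3.10.2, CASAVA 1.8.4 and FastQC are listed in the submitters' processing notes. Whether strand was used is not stated there, so antisense overlaps are uncertain. RSEM shares ambiguous reads, and 27.17% to 29.44% of values per library were not whole. Of the 120 values of the 10 genes, 102 were whole.

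Symbols came from RefSeq on GRCm38.p6 for 23014 rows and from GENCODE metadata for 133, and 235 rows had none. Transcript lengths are the longest listed transcript in GENCODE. Counts were rounded, filtered with filterByExpr and scaled with TMM (factors 0.99 to 1.01). EdgeR 4.0.16 in R 4.3.3 fitted 4 group means (glmQLFit, robust, 8 residual degrees of freedom), with Benjamini-Hochberg adjustment over 15802 genes and a threshold of 0.05. The code was also run on simulated data with 200 changed genes. That simulation held no tissue differences between libraries, and its recovery of the changed genes is not given here. DESeq2 1.42.0 and limma 3.58.1 were alternatives, beside other scalings, filters and leaving out each library. Chi-square per gene between libraries of a group was at least 12.1, so no library was a repeated sequencing of another in its group. Pairs across groups were not compared, and the value cannot tell whether libraries came from separate animals. All 10 genes are reported. The genes most like a member (3 per member by Pearson r, prior count 2, mean of at least 1 CPM) and the gene with the smallest p-value of a list may be named, with Disc1, Ptgs2, Ttr, Drd2 and Fkbp5 as checks. The gene family to describe, its 10 members and all lists were chosen with earlier results of these data known, although no member was selected by a value threshold.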

Additional observations from a re-analysis of the deposited data

How the results depend on the processing

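No gene of the set passed the threshold under any of the 20 alternatives in any comparison (smallest adjusted p 0.067, Nfkbia in mutant THC against control vehicle by DESeq2, which gave no adjusted p for Nfkbie in that comparison), and 1020 of 1071 alternative log2 fold changes kept their direction. No paired analysis was possible because the library numbers do not recur between groups. The interaction could not be fitted on the groups compared alone, as it uses all 4. Dropping mutant THC 3 and mutant vehicle 3 together was chosen after seeing the data.

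The 51 reversed values ran from -0.14 to 0.1, which spans sizes as large as some differences reported above. Leaving out single libraries gave -0.13 to 0.08 for THC in controls on Nfkb2, -0.03 to 0.29 on Rel and -0.0067 to 0.16 on Relb. For THC in mutants it gave -4.5e-05 to 0.35 on Rel, -0.02 to 0.17 on Nfkbia, -0.19 to 0.00033 on Nfkbie and -0.09 to 0.13 on Nfkbiz. For the interaction it gave -0.14 to 0.21 on Rel, -0.05 to 0.02 on Rela, -0.08 to 0.13 on Relb and -0.07 to 0.06 on Nfkbib. For genotype it gave -0.0046 to 0.05 on Rela under vehicle, -0.03 to 0.04 on Rela and -0.09 to 0.1 on Nfkbia under THC, and for mutant THC against control vehicle -0.1 to 0.05 on Relb. Without mutant THC 3 and mutant vehicle 3 the Rel interaction was -0.1, Rela under THC -0.04 and Relb in mutant THC against control vehicle 0.01. Without a filter Rela was at -0.0063 under vehicle, -0.0023 under THC and 0.004 in the interaction, and the Nfkbib interaction at 0.02. With library size only, Rela under THC was at -0.0018 and the Relb interaction at -0.0026. The Nfkbib interaction was 0.0031 with RLE, 0.0069 at 1 CPM or more, 0.0046 by DESeq2 and 0.0065 by limma-voom. The cause was not tested.

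Over all genes edgeR called 0, 0, 1, 1, 0 and 1 for THC (controls, then mutants), genotype (vehicle, then THC), the interaction and mutant THC against control vehicle. DESeq2 called 12, 3, 788, 7, 34 and 167, limma-voom 0 in each, and fits on the groups compared 523 for genotype under vehicle and 0 in the other 4. Leaving out single libraries gave up to 0, 3, 6, 2, 10 and 1.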
